A study of Arabidopsis thaliana with 16 samples.

Results

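Transcripts of 42 genes of iron uptake, iron regulation and iron storage were followed in roots and leaves of Arabidopsis thaliana. The genes were chosen by locus identifier from known functions in iron biology, with earlier results of these data known. They are 42 of the 32678 loci counted in each library. All 42 were in every count file.

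By role, the regulators were FIT (AT2G28160), bHLH38 (AT3G56970), bHLH39 (AT3G56980), bHLH100 (AT2G41240), bHLH101 (AT5G04150), PYE (AT3G47640), ILR3 (AT5G54680), BTS (AT3G18290), MYB10 (AT3G12820) and MYB72 (AT1G56160). Uptake was represented by IRT1 (AT4G19690), IRT2 (AT4G19680), FRO2 (AT1G01580), AHA2 (AT4G30190) and NRAMP1 (AT1G80830). Coumarin synthesis and export were represented by F6'H1 (AT3G13610), AT3G12900, CYP82C4 (AT4G31940), AT1G28680, ABCG37 (AT3G53480) and BGLU42 (AT5G36890). The nicotianamine synthases were NAS1 (AT5G04950), NAS2 (AT5G56080), NAS3 (AT1G09240) and NAS4 (AT1G56430). Vacuole genes were ZIF1 (AT5G13740), VIT1 (AT2G01770), NRAMP3 (AT2G23150), NRAMP4 (AT5G67330) and FPN2 (AT5G03570), and transport between tissues was represented by FRD3 (AT3G08040), OPT3 (AT4G16370), YSL1 (AT4G24120), YSL2 (AT5G24380) and YSL3 (AT5G53550). The reductases other than FRO2 were FRO3 (AT1G23020), FRO6 (AT5G49730) and FRO7 (AT5G49740), and the ferritins FER1 (AT5G01600), FER2 (AT3G11050), FER3 (AT3G56090) and FER4 (AT2G40300). After a filter on low counts, 39 of them could be tested in roots, 31 in leaves and 41 across both organs. NAS3, VIT1 and FRO7 were too low in roots, and VIT1 was too low in both organs. The 11 members below the filter in leaves were bHLH39, MYB72, IRT1, IRT2, FRO2, AT3G12900, CYP82C4, NAS2, VIT1, FPN2 and FER2.

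The plants were 25 days old, grown on a clay substrate with a nutrient solution and given no treatment, and every genotype carried the pho1-4 mutation in PHO1, which encodes a phosphate exporter needed to move phosphate from root to shoot. The group KO was the pho1-4 knockout mutant, Compl was pho1-4 complemented with the PHO1 gene, and EXS32 and EXS34 were 2 lines of pho1-4 expressing a GFP-tagged EXS domain of PHO1, each of them a single line. Neither wild-type plants nor plants grown at different iron or phosphate supplies are among the libraries, and which promoters drive the transgenes is not stated in the labels. Each genotype had 2 libraries per organ, which gives 16 libraries. Whether paired libraries derive from different plants is not stated, so a p-value here reflects the variation among these libraries, which may be technical.

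Iron in aerated soil is mostly insoluble. Arabidopsis roots acidify the soil and secrete coumarins that mobilise ferric iron, reduce it at the surface with the ferric chelate reductase FRO2 and import it through IRT1. The bHLH protein FIT, acting with the subgroup Ib bHLH proteins, switches these genes on under iron shortage. Inside the plant, iron moves as complexes with citrate in the xylem and with nicotianamine elsewhere, is kept in vacuoles, and is stored in plastids inside ferritin. Phosphate binds iron, and phosphate starvation is known to raise ferritin transcripts and lower uptake transcripts in this species.

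Levels are given in CPM, read counts scaled to the reads assigned to genes in each library. The root libraries held 20139794 to 31405117 such reads and the leaf libraries 9465995 to 15530134. Changes are given as log2 fold changes ± SE, and adjusted p-values come from edgeR's quasi-likelihood test with Benjamini-Hochberg adjustment over all genes tested, called at 0.05. The fold changes also include TMM scaling between libraries and the CPM do not. Between organs they therefore differ from the ratios of the CPM shown. The median of roots over leaves over all genes was 0.06 with TMM and 0.62 with library size alone. Reads over the PHO1 locus numbered 1456 to 2883 CPM in roots and 46.8 to 109 CPM in leaves, with KO at 2249 and 1987 CPM in roots. Because mutant and transgene RNA both count toward the locus, this level checks no genotype label. Summed CPM of 6 leaf mesophyll markers ran from 23.1 to 122 in roots and from 30420 to 37580 in leaves, and 5 root hair markers summed to 290 to 531 in roots and to 0.446 to 1.35 in leaves. In whole organs, fewer cells of a type and less RNA per cell cannot be told apart. In a principal component analysis of roots, Compl replicate 1 stood at 68.4 and Compl replicate 2 at 31.8, against -44.4 to 8.3 in the other 6 along the first component, which held 40.5% of the variance.

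For all 8 leaf libraries the name of the count file gives another genotype than the sample label. The files of the leaf libraries labelled KO are named for Compl, those labelled Compl for EXS32, those labelled EXS32 for EXS34 and those labelled EXS34 for pho1-4. The data used here do not settle which is right, so each leaf group keeps its label here, with the file name beside it. A genotype effect that differed between roots and leaves was called for 4009 genes with the labels and 1431 with the file names. Which naming is right was not tested. Tests that ask whether the 4 leaf groups differ at all, and tests of roots against leaves, do not depend on these names. For roots, labels and file names give the same genotypes.

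The 250 bases upstream of 6 members are shown here as examples. bHLH38, OPT3 and NAS1 were lower in EXS32 than in Compl roots, and FER3 was higher in leaves. BTS and bHLH100 belong to the same regulatory circuit as bHLH38, and bHLH100 was called in no comparison. The examples do not represent the share of members with a motif, which is given below. Sequences are from the RefSeq TAIR10.1 assembly, 5′ to 3′ on the strand of the gene, ending at the base before the annotated gene start. Capitals mark the G-box CACGTG, which reads the same on both strands and is a known site of bHLH and bZIP proteins.
bHLH38 chr3:21085246-21085495 strand minus: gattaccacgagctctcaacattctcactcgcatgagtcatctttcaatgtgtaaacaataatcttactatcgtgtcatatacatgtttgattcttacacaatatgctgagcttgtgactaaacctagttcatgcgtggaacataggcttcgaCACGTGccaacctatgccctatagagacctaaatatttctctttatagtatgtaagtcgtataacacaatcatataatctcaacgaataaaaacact
bHLH100 chr2:17199455-17199704 strand minus: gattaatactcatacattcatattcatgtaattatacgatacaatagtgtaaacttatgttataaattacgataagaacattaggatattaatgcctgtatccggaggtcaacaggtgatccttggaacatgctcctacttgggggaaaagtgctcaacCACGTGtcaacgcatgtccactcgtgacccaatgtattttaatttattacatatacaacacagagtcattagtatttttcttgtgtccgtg
BTS chr3:6273716-6273965 strand plus: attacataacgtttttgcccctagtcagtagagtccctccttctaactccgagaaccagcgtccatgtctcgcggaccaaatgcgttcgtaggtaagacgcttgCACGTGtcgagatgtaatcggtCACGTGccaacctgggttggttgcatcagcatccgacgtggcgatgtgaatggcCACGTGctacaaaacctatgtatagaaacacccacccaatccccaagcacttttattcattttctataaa
OPT3 chr4:9250344-9250593 strand minus: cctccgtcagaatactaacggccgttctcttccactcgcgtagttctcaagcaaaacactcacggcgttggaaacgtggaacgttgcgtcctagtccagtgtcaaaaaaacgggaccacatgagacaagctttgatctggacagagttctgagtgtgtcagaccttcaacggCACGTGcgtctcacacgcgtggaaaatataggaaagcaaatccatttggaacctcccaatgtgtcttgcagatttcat
FER3 chr3:20816036-20816285 strand minus: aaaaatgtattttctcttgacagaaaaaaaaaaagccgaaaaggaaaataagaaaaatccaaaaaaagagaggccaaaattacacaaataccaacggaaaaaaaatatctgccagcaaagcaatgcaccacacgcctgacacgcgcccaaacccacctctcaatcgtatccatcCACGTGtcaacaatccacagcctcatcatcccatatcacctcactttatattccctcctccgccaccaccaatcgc
NAS1 chr5:1459040-1459289 strand minus: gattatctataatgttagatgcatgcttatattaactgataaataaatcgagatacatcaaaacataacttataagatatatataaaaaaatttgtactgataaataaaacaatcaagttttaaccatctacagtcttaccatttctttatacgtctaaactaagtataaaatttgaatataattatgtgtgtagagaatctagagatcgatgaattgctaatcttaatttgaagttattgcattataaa
A G-box lay in this window in 7 of 41 members searched (17.1%) and in 1780 of 27437 protein-coding genes (6.49%). The other members with it were FRO6 and FRO7. BTS had 3 copies, whose first bases lay 146, 124 and 70 bases upstream of the gene start. The single copies began 97 bases upstream in bHLH38, 91 in bHLH100, 78 in OPT3 and 76 in FER3. The promoter of NAS1 held no match, and nothing about a factor follows from that. The phosphate motif P1BS, searched as GNATATNC on both strands, was found in 1 member, YSL3, 93 bases upstream (2.44% of members searched), and in 5.46% of all promoters. P1BS is the site bound by PHR1, the main transcription factor of phosphate starvation. A match in sequence is a description and not evidence of binding.

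The organs differed most. In the test of the mean of the 4 root groups against the mean of the 4 leaf groups, 38 of 41 tested members were called, 25 higher in roots and 13 higher in leaves. Of all 21351 genes tested, 81.6% were called, 43.1% higher in roots and 38.4% higher in leaves, so the count of members called is read against that share. The median log2 fold change of roots over leaves was 1.04 over the members and 0.06 over all genes. By size of change, 14 members were over 4-fold higher in roots and 6 over 4-fold higher in leaves, and for all 20 the root and leaf libraries did not overlap in CPM. Without overlap were 29 members in all, and 64.2% of all genes. The share of all genes over 4-fold apart was not counted, so the 14 and 6 describe the members only. Only bHLH100, PYE and FRO3 were not called (adjusted p = 0.841, 0.186 and 0.119). With library size alone PYE (0.42, adjusted p = 0.000764) and FRO3 (0.83, adjusted p = 0.000223) were called higher in roots, and leaving out EXS34 leaves replicate 1 made PYE lower (-0.20, adjusted p = 0.0366) and leaving out KO roots replicate 2 made FRO3 higher (0.38, adjusted p = 0.0162).

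**Figure D1:**
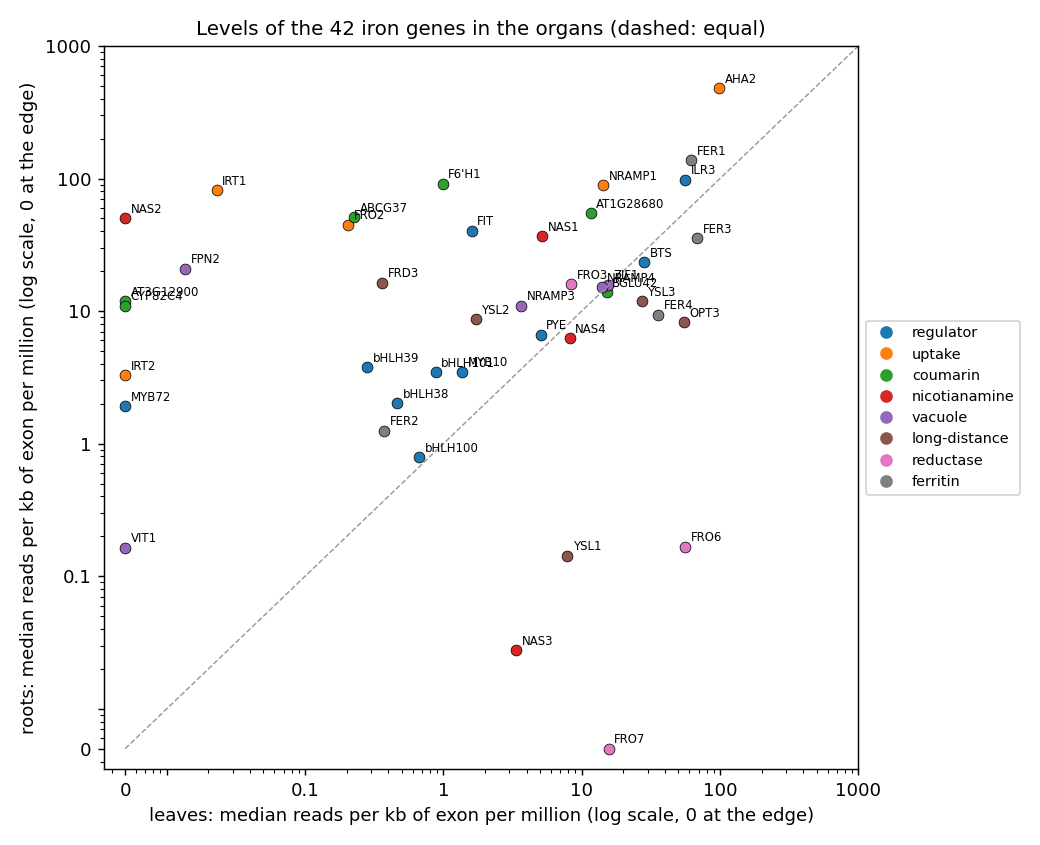
Median level of the members in the 8 root libraries (vertical axis) and in the 8 leaf libraries (horizontal axis), both in CPM per kb of merged exon on log scales, with medians of 0 drawn at the edge of the plot. IRT1, FRO2, NAS2 and ABCG37 lie at high root and low leaf levels, whereas FRO6, FRO7, NAS3 and YSL1 lie at the opposite corner.

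Among regulators, FIT ran over the 8 root libraries at 49.1, 55.9 and 107 CPM (lowest, median and highest) and over the 8 leaf libraries at 1.22, 2.21 and 4.09 CPM, a log2 fold change of 4.30 ± 0.24, adjusted p = 5.14e-09. Of the subgroup Ib partners of FIT, bHLH39 was also root-high, at 1.84, 4.58 and 9.18 CPM against 0.0644, 0.341 and 1.11 CPM in leaves (2.98 ± 0.36, adjusted p = 5.44e-06). MYB72, a factor needed for growth at low iron, ran from 0.741 to 4.96 CPM in roots and had 0 reads in the leaf libraries against 444 in the root libraries, which makes it at least 71-fold higher in roots, taking a floor of 3 reads over the 8 leaf libraries. The ubiquitin ligase BTS, which limits the iron deficiency response, was higher in leaves at 91.6, 127 and 153 CPM than in roots at 93.5, 105 and 121 (-0.78 ± 0.08, adjusted p = 1.05e-06), although the ranges overlapped. bHLH38 was higher in roots (1.17 ± 0.41, adjusted p = 0.0173). Of the alternatives, only leaving out EXS32 roots replicate 2 ended this call, with a log2 fold change of 0.98. ILR3 and MYB10 were higher in roots by 0.23 ± 0.06 and 0.76 ± 0.16, and bHLH101 by 1.78 ± 0.29. PYE and bHLH100 overlapped between organs, with 7.43 to 10.13 and 0.461 to 3.10 CPM in roots and 4.82 to 7.71 and 0 to 1.72 in leaves.

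IRT1, IRT2 and FRO2 had few or no reads in leaves. IRT1, the main iron importer of the root epidermis, had 29278 reads over the root libraries and 9 over the leaf libraries, and ran at 64.6, 127 and 306 CPM in roots and from 0 to 0.387 in leaves. FRO2 reached 66.7, 128 and 346 CPM in roots and 0.211, 0.584 and 0.956 in leaves (7.47 ± 0.39, adjusted p = 2.87e-09). IRT2, a close relative of IRT1, had 1092 root reads and 0 leaf reads, at least 175-fold higher by the same floor. The proton pump AHA2 and the manganese and iron transporter NRAMP1 were less exclusive. AHA2 ran at 1452, 1769 and 2053 CPM in roots and 302, 366 and 469.6 in leaves (1.63 ± 0.07), and NRAMP1 at 121, 216 and 329 and 27.3, 34.8 and 43.5 CPM (2.07 ± 0.13). Their adjusted p-values were 1.42e-10 and 9.38e-09. Scaled to length, AHA2 had the highest root level of these 5 genes, at a median of 478 CPM per kb, followed by NRAMP1 at 89.0, IRT1 at 81.2 and FRO2 at 44.7, and IRT2 was lowest at 3.29. The library ranges of IRT1, NRAMP1 and FRO2 were wide, and no difference between these 3 was tested.

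The coumarin pathway showed the same organ bias except for its last listed member. F6'H1, the enzyme that makes scopoletin precursors, ran at 86.1, 134 and 219 CPM in roots and 0.0892, 1.46 and 5.80 in leaves (5.93 ± 0.31, adjusted p = 3.15e-09). The exporter ABCG37 stood at 186, 239 and 468 CPM in roots and 0.609, 1.07 and 2.89 in leaves (7.002 ± 0.25, adjusted p = 9.41e-11). CYP82C4, a cytochrome P450 of this pathway, had 5170 root reads and 0 leaf reads, at least 826-fold higher, and AT3G12900, annotated as a 2-oxoglutarate and Fe(II)-dependent oxygenase, had 4911 root reads and 1 leaf read. AT1G28680, annotated as an HXXXD-type acyl-transferase, was higher in roots by 1.86 ± 0.07. The beta-glucosidase BGLU42 was slightly higher in leaves (-0.70 ± 0.06). Its CPM overlapped between organs, at 25.7, 32.0 and 39.3 in roots and 32.4, 34.9 and 38.2 in leaves. The fold change, unlike the CPM, includes TMM scaling.

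The 4 nicotianamine synthases divided between the organs. NAS2 had 13212 root reads and 1 leaf read, with 20.7 to 190.1 CPM in the root libraries. NAS3 was the reverse, with 9 root reads and 563 leaf reads, and ran at 3.19, 4.73 and 15.02 CPM in leaves (-7.68 ± 0.41, adjusted p = 3.72e-09). NAS1 was higher in roots, at 15.3, 51.4 and 90.5 CPM against 2.89, 7.21 and 17.0 in leaves (1.92 ± 0.22). NAS4 was higher in leaves at 7.61, 11.8 and 18.6 CPM against 2.72, 9.02 and 18.0 in roots (-1.09 ± 0.25, adjusted p = 0.0014), a call that ended when libraries were scaled by size alone (adjusted p = 0.0616). Median levels per length in roots were 50.3 CPM per kb for NAS2, 36.8 for NAS1, 6.25 for NAS4 and 0.0278 for NAS3. In leaves NAS4 at 8.19, NAS1 at 5.16 and NAS3 at 3.37 lay close together.

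Carriers between tissues also divided. FRD3, which exports citrate into the root xylem, ran at 22.6, 37.3 and 68.0 CPM in roots and 0.423, 0.822 and 1.64 in leaves (5.02 ± 0.13, adjusted p = 9.55e-13). FPN2, a ferroportin of the vacuole membrane, had 8792 root reads and 4 leaf reads. OPT3, which loads iron into the phloem, was higher in leaves, at 93.3, 149 and 213 CPM against 8.43, 22.2 and 31.9 in roots (-3.46 ± 0.10, adjusted p = 1.87e-12). YSL1, a carrier of metal nicotianamine complexes, ran at 13.1, 21.5 and 35.6 CPM in leaves and 0.230, 0.392 and 0.605 in roots (-6.29 ± 0.14, adjusted p = 1.78e-13). Its relative YSL3 was higher in leaves too (-1.60 ± 0.11), and YSL2 was higher in roots (1.71 ± 0.19). The vacuolar exporter NRAMP3 was higher in roots (0.96 ± 0.07). For NRAMP4 the direction depended on scaling, as it gave -0.40 ± 0.06 (adjusted p = 2.23e-05) and 0.16 with library size alone (adjusted p = 0.0117), and ZIF1 gave -0.61 ± 0.10 and -0.05 with library size alone, the same direction without a call (adjusted p = 0.597). Scaling by library size moved the median over all genes from 0.06 to 0.62.

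FRO6 and FRO7 were far higher in leaves. FRO6, a reductase of the leaf cell surface, ran at 121, 154 and 187 CPM in leaves and 0.298, 0.462 and 0.645 in roots (-8.96 ± 0.12, adjusted p = 2.46e-15). FRO7, which reduces iron at the chloroplast, had 5170 leaf reads and 1 root read, and stood at 38.2, 45.9 and 80.8 CPM in leaves. FRO3, a mitochondrial reductase, ran from 29.8 to 56.2 CPM in roots and 19.7 to 34.4 in leaves. Ferritins split too. FER4 was higher in leaves, at 30.3, 44.5 and 51.9 CPM against 9.07, 11.7 and 13.5 in roots (-2.44 ± 0.13, adjusted p = 1.31e-09), as was FER3 (-1.505 ± 0.09), whereas FER1 (0.44 ± 0.12) and the seed ferritin FER2 (1.04 ± 0.22) were higher in roots. FER1 overlapped between the organs, at 131 to 259.7 CPM in roots and 53.7 to 159 in leaves, and FER2 did not, at 1.06 to 2.28 and 0.288 to 0.892 CPM. Per length, FER1 had the highest root level of the 4 ferritins, at a median of 137 CPM per kb, and in leaves FER3 (68.4) and FER1 (61.9) lay close together. FER2 was lowest in both organs (1.25 in roots and 0.373 in leaves).

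Among root genotypes, EXS32 against the complemented line gave the most calls. Of 39 tested members 11 were called in EXS32 against Compl (28.2%, against 12.4% of all 20597 genes), 10 lower and 1 higher, where 7.27% of all genes were lower and 5.10% higher. The members were chosen with earlier results of these data known, so these shares describe the list and do not test it. The median log2 fold change was -0.39 over the members and -0.02 over all genes. The members that fell were the regulators bHLH38 and MYB72, the importer IRT2, the coumarin genes F6'H1 and AT1G28680, the synthases NAS1 and NAS2, and the carriers FRD3, OPT3 and YSL2, and ZIF1 rose. No vacuole gene, ferritin or reductase was called lower. The median log2 fold change was 0.21 over the tested vacuole genes, -0.05 over the ferritins and 0.08 over FRO3 and FRO6. Libraries of the groups did not overlap for 27 members (60.4% of all genes). Most of these calls depended on single libraries and ended when either EXS32 library was left out, as did most calls over all genes. Leaving out Compl replicate 1 also lowered the count, among the members and among all genes. NAS1 held its call in all 14 settings tried, among them each library left out.

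**Figure D2:**
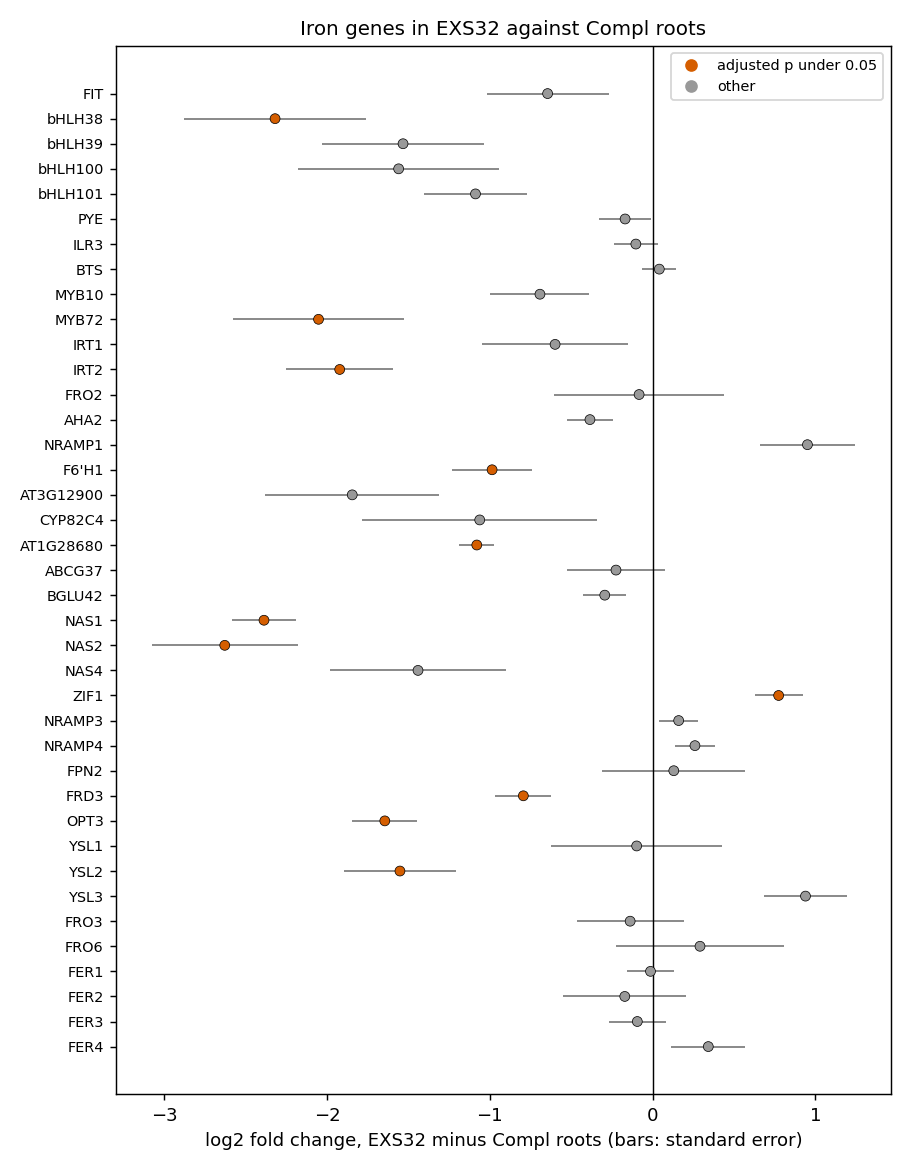
Log2 fold change of EXS32 over Compl roots for each tested member with its standard error, ordered by role, with called members in orange. NAS2, NAS1 and bHLH38 lie lowest at -2.63, -2.39 and -2.32, and ZIF1 is the only called member above 0, at 0.77.

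Summed markers of root tissues moved with this comparison, though not every gene in them. Summed CPM of 4 xylem markers was 561 and 392 in Compl and 301 and 286 in EXS32, and that of 5 general root markers 7682 and 5672 in Compl and 3900.0 and 3618 in EXS32. The 2 endodermis markers summed to 400 and 284 in Compl and to 181 and 193 in EXS32, and the 5 root hair markers to 531 and 424 in Compl and 350.0 and 363 in EXS32. The 2 phloem companion cell markers moved the other way, at 90.0 and 95.8 in Compl and 212 and 207 in EXS32. Within the lists, EXPA7 of the root hair went the other way, at 56.5 and 51.2 CPM in Compl and 64.1 and 67.7 in EXS32, and CASP1, RHD2 and TIP2;3 overlapped between the groups. ASFT, of the endodermis, stood at 231 and 160.0 CPM in Compl and 51.4 and 57.6 in EXS32. Their part in the results for iron genes was not tested.

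Over the other root comparisons the members gave few calls. In KO against Compl 1 member was called (AT1G28680, lower; 0.884% of all genes), in EXS32 against KO 1 (NAS1, lower; 0.126%), and in EXS34 against EXS32 1 (NAS1, higher; 0.908%). None was called in EXS34 against KO (0% of all genes) or EXS34 against Compl (0.131%); 8 and 10 of the 39 members had an unadjusted p under 0.05 there, as did 1871 and 2969 of all 20597 genes. DESeq2 called 2 and 5 members there and 100 and 642 of all genes. Asked whether the 4 root groups differed at all, 6 members were called (15.4%, against 3.98% of all genes): IRT2, AT1G28680, NAS1, FRD3, OPT3 and FER1. The comparisons share groups, so their values below stand side by side and do not support each other.

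The subgroup Ib regulators and MYB72 had their lowest group means in EXS32 roots. bHLH38 stood at 4.50 and 2.17 CPM in KO, 2.78 and 4.10 in Compl, 0.415 and 0.989 in EXS32 and 2.20 and 1.25 in EXS34. Both EXS32 libraries lay below all the others, and EXS32 against Compl gave -2.32 ± 0.56, adjusted p = 0.0383, though the call was held in 8 of 14 settings. MYB72 stood at 4.96 and 2.23 CPM in KO, 3.58 and 2.91 in Compl, 0.876 and 0.741 in EXS32 and 1.73 and 0.780 in EXS34, with EXS32 against Compl at -2.05 ± 0.53, adjusted p = 0.045 (10 of 14 settings, adjusted p up to 0.241). The EXS34 library with 0.780 CPM fell inside the EXS32 range. bHLH39 stood at 9.18 and 4.49 CPM in KO, 4.67 and 7.10 in Compl, 1.84 and 2.35 in EXS32 and 5.57 and 2.50 in EXS34, bHLH100 at 3.10 and 1.11 CPM in KO, 1.94 and 1.05 in Compl, 0.461 and 0.577 in EXS32 and 0.777 and 0.546 in EXS34 and bHLH101 at 5.07 and 3.82 CPM in KO, 6.06 and 5.14 in Compl, 3.46 and 2.02 in EXS32 and 3.67 and 2.85 in EXS34. EXS32 was below Compl in each of these 3 without passing the threshold (adjusted p = 0.0872, 0.139 and 0.0634).

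FIT itself, the partner of the subgroup Ib proteins, was not called either, like bHLH39, bHLH100 and bHLH101. It stood at 107 and 49.2 CPM in KO, 58.4 and 96.7 in Compl, 49.1 and 53.3 in EXS32 and 67.8 and 52.2 in EXS34, and EXS32 against Compl gave -0.65 ± 0.38, adjusted p = 0.294. PYE, a bHLH repressor of iron transport genes, stood at 9.89 and 9.23 CPM in KO, 10.13 and 9.15 in Compl, 9.49 and 8.28 in EXS32 and 7.43 and 8.51 in EXS34. BTS stood at 121 and 108 CPM in KO, 97.9 and 103 in Compl, 106 and 108 in EXS32 and 103 and 93.5 in EXS34. ILR3, a bHLH protein that partners PYE, ran from 112 to 139 CPM and MYB10 from 3.55 to 7.28 CPM over the 8 root libraries, and neither was called in any root comparison. No comparison of root genotypes called FIT, PYE or BTS.

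**Figure D3:**
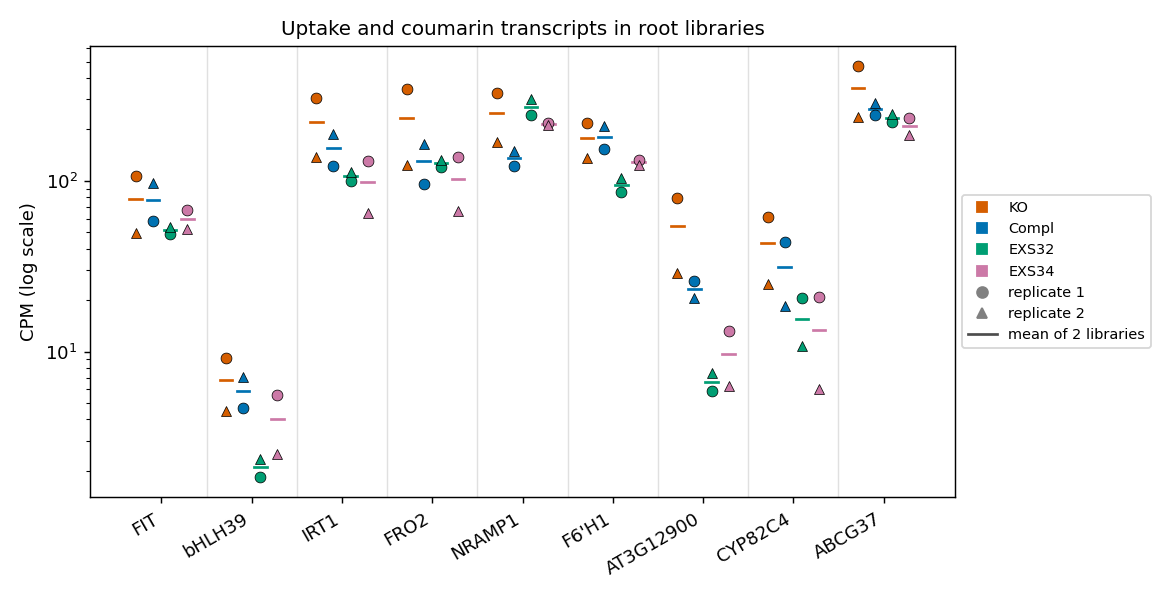
CPM (log scale) of 9 regulator, uptake and coumarin genes in the 2 root libraries of each genotype (circle, replicate 1; triangle, replicate 2; line, mean). KO replicate 1 is the highest point for IRT1 (306 CPM), FRO2 (346 CPM) and AT3G12900 (79.7 CPM), with KO replicate 2 at 138, 123 and 28.7 CPM.

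Of the uptake genes, IRT2 was the one called. It stood at 5.07 and 5.57 CPM in KO, 13.9 and 7.42 in Compl, 3.36 and 2.47 in EXS32 and 4.10 and 4.02 in EXS34, so that both Compl libraries were above the other 6, and EXS32 against Compl gave -1.92 ± 0.33, adjusted p = 0.0138. This call was lost without either EXS32 library and when only these groups were fitted (adjusted p up to 0.127). IRT1 stood at 306 and 138 CPM in KO, 123 and 189 in Compl, 99.9 and 113 in EXS32 and 131 and 64.6 in EXS34, and FRO2 at 346 and 123 CPM in KO, 96.2 and 164 in Compl, 121 and 132 in EXS32 and 139 and 66.7 in EXS34. For both genes KO and Compl overlapped, with the KO libraries far apart, and no pair of groups was called. AHA2 stood at 1786 and 1519 CPM in KO, 1751 and 1937 in Compl, 1452 and 1473 in EXS32 and 1838 and 2053 in EXS34, within a range of 1452 to 2053 CPM. NRAMP1 stood at 329 and 169 CPM in KO, 121 and 150.3 in Compl, 243 and 301 in EXS32 and 219 and 213 in EXS34, lower in both Compl libraries than in the other 6, with EXS32 over Compl at 0.95 ± 0.29, adjusted p = 0.077.

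Among coumarin genes, AT1G28680 stood at 85.4 and 85.9 CPM in KO, 135 and 118 in Compl, 61.1 and 62.9 in EXS32 and 92.6 and 99.0 in EXS34. Its Compl libraries were the highest and its EXS32 libraries the lowest. EXS32 against Compl gave -1.08 ± 0.11, adjusted p = 0.00371, a call lost without either EXS32 library (adjusted p up to 0.0577). KO against Compl gave -0.64 ± 0.11, adjusted p = 0.0491, a call held in 3 of 14 settings and lost without KO replicate 1, KO replicate 2, Compl replicate 1 or any EXS32 or EXS34 library (adjusted p up to 0.231). F6'H1 stood at 219 and 136 CPM in KO, 153 and 210.4 in Compl, 86.1 and 104 in EXS32 and 132 and 124 in EXS34, with EXS32 against Compl at -0.99 ± 0.24, adjusted p = 0.042 (held in 6 of 14 settings). AT3G12900 stood at 79.7 and 28.7 CPM in KO, 25.9 and 20.5 in Compl, 5.90 and 7.46 in EXS32 and 13.2 and 6.28 in EXS34. Its EXS32 libraries were below both Compl and both KO libraries, yet EXS32 against KO gave -3.00 ± 0.55, adjusted p = 0.106 and EXS32 against Compl -1.84 ± 0.54, adjusted p = 0.0654. CYP82C4 stood at 61.8 and 24.8 CPM in KO, 44.0 and 18.4 in Compl, 20.5 and 10.7 in EXS32 and 20.9 and 6.01 in EXS34 and ABCG37 at 468 and 236 CPM in KO, 242 and 287 in Compl, 222 and 247 in EXS32 and 234 and 186 in EXS34, and neither was called. BGLU42 ran from 25.7 to 39.3 CPM.

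Of the tested members, the synthases NAS2 and NAS1 had the lowest log2 fold changes in EXS32 against Compl roots. NAS1 stood at 64.1 and 62.0 CPM in KO, 90.5 and 64.1 in Compl, 15.3 and 15.3 in EXS32 and 31.9 and 40.9 in EXS34. The EXS32 libraries lay below all others, the EXS34 libraries next, and the KO and Compl libraries from 62.0 to 90.5 CPM. EXS32 against Compl gave -2.39 ± 0.20, adjusted p = 0.00229, held in all 14 settings (adjusted p from 1.03e-23 to 0.0402). EXS32 against KO gave -2.02 ± 0.20, adjusted p = 0.0319, a call held in 8 settings and lost without any 1 of the KO, EXS32 or EXS34 libraries (adjusted p up to 0.42). EXS34 against EXS32 gave 1.24 ± 0.19, adjusted p = 0.0435, a call held in 7 settings and lost without any 1 of those same libraries or with a replicate block (adjusted p up to 0.333). NAS2 stood at 69.2 and 75.1 CPM in KO, 190.1 and 70.2 in Compl, 23.2 and 20.7 in EXS32 and 61.7 and 42.2 in EXS34. Its EXS32 libraries were again the lowest, and EXS32 against Compl gave -2.63 ± 0.45, adjusted p = 0.015, lost without either EXS32 library. NAS4 stood at 8.73 and 14.6 CPM in KO, 10.7 and 18.0 in Compl, 4.98 and 5.93 in EXS32 and 2.72 and 9.32 in EXS34. Its EXS32 libraries lay below those of KO and Compl and between the EXS34 libraries, and EXS32 against Compl gave -1.44 ± 0.54, adjusted p = 0.125. NAS3 had 9 reads over the 8 root libraries and no genotype was compared.

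**Figure D4:**
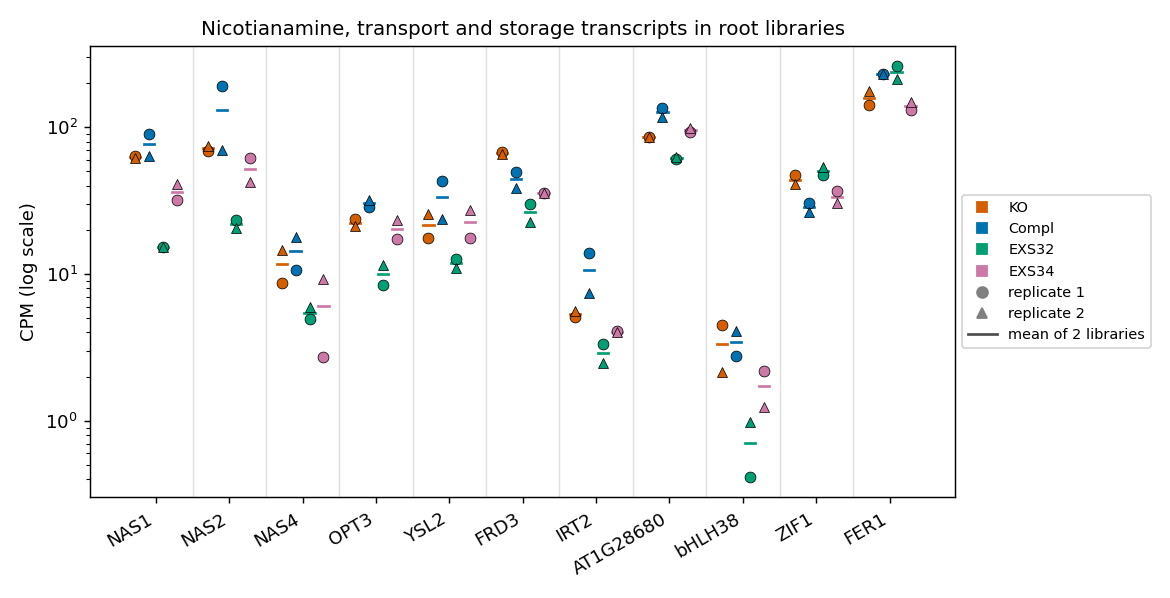
CPM (log scale) of 11 members, among them all those called in EXS32 against Compl other than MYB72 and F6'H1, in the 2 root libraries of each genotype (circle, replicate 1; triangle, replicate 2; line, mean). The NAS1 libraries of EXS32 both stand at 15.3 CPM, below the other 6 at 31.9 to 90.5 CPM.

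Of the carriers, OPT3 stood at 23.6 and 21.1 CPM in KO, 28.8 and 31.9 in Compl, 8.43 and 11.6 in EXS32 and 17.3 and 23.3 in EXS34. EXS32 libraries were below the other 6, and EXS32 against Compl gave -1.65 ± 0.20, adjusted p = 0.00622 (held in 13 of 14 settings and lost without EXS32 replicate 1, adjusted p = 0.0532). FRD3 stood at 68.0 and 65.9 CPM in KO, 49.5 and 38.8 in Compl, 30.2 and 22.6 in EXS32 and 35.5 and 35.9 in EXS34, highest in both KO libraries, with EXS32 against Compl at -0.79 ± 0.17, adjusted p = 0.0281 (adjusted p up to 0.194 over the settings). YSL2 stood at 17.7 and 25.8 CPM in KO, 42.9 and 23.8 in Compl, 12.7 and 10.9 in EXS32 and 17.7 and 27.4 in EXS34, with EXS32 against Compl at -1.55 ± 0.35, adjusted p = 0.0321 (held in 9 of 14 settings). YSL3 moved the other way without a call, at 45.6 and 30.5 CPM in KO, 28.9 and 22.8 in Compl, 50.2 and 52.7 in EXS32 and 41.8 and 28.5 in EXS34 (EXS32 over Compl 0.94 ± 0.26, adjusted p = 0.0551). ZIF1, which brings nicotianamine into vacuoles, stood at 47.1 and 40.8 CPM in KO, 30.3 and 26.6 in Compl, 47.5 and 53.3 in EXS32 and 36.6 and 30.4 in EXS34. Its EXS32 libraries were above all others and its Compl libraries the lowest (0.77 ± 0.15, adjusted p = 0.019), lost without either EXS32 library. NRAMP3, NRAMP4 and FPN2 ran from 19.4 to 24.5, 29.99 to 42.5 and 26.5 to 61.8 CPM, and VIT1, which fills the vacuole with iron, reached at most 0.276 CPM.

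Of the ferritins only FER1 was called in roots. FER1, a common marker of iron excess, stood at 143 and 176 CPM in KO, 232 and 229 in Compl, 259.7 and 214 in EXS32 and 131 and 148 in EXS34, so that Compl and EXS32 lay above KO and EXS34. The 4-group test called it (adjusted p = 0.0448), but each pair of groups missed the threshold: KO against Compl gave -0.60 ± 0.14, adjusted p = 0.0985, EXS34 against Compl -0.78 ± 0.15, adjusted p = 0.0941 and EXS34 against EXS32 -0.77 ± 0.15, adjusted p = 0.0664. The 4-group call was held in 4 of 13 settings (adjusted p up to 0.164). FER2 stood at 1.06 and 1.43 CPM in KO, 1.19 and 2.28 in Compl, 1.75 and 1.44 in EXS32 and 1.51 and 1.29 in EXS34. FER3 stood at 37.0 and 46.5 CPM in KO, 44.0 and 52.1 in Compl, 49.3 and 44.0 in EXS32 and 40.2 and 55.2 in EXS34, and FER4 at 9.32 and 12.8 CPM in KO, 10.7 and 9.42 in Compl, 13.2 and 13.2 in EXS32 and 9.07 and 13.5 in EXS34. No pair of root groups was called for these 3, and their largest adjusted p in the 4-group test was 0.689.

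KO roots replicate 1 was the highest root library for 17 of the 39 tested members, against 9.01% of all genes, and KO replicate 2 was highest for none (13.3% of all genes). In KO roots, 9 members were at least 2-fold higher in replicate 1 than in replicate 2 (2.28% of all genes), namely FIT, bHLH38, bHLH39, bHLH100, MYB72, IRT1, FRO2, AT3G12900 and CYP82C4. CYP82C4, for example, stood at 61.8 and 24.8 CPM, and FIT at 107 and 49.2 CPM. In the same pair NAS1 stood at 64.1 and 62.0 CPM and AT1G28680 at 85.4 and 85.9. EXS34 roots showed 6 members at least 2-fold higher in replicate 1 (1.89% of all genes), namely bHLH39, MYB72, IRT1, FRO2, AT3G12900 and CYP82C4. Over 14 settings, KO against Compl ran from -0.15 to 1.36 for FRO2 and from -0.26 to 0.91 for IRT1.

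In leaves the share of members called in the 4-group test was close to that of all genes. Asked whether the 4 leaf groups differed at all, 8 of 31 tested members were called (25.8%, against 26.9% of all 18548 genes). As labelled, KO against Compl called 8 members (21.1% of all genes), 6 higher and 2 lower (10.5% and 10.6% of all genes). EXS32 against KO called 3 (5.93%), EXS34 against KO 1 (6.41%), EXS32 against Compl 3 (14.8%) and EXS34 against EXS32 1 (5.69%). EXS34 against Compl called 7 (18.3%), 5 higher and 2 lower (9.54% and 8.80%). The libraries labelled Compl, whose files are named for EXS32, lay at 39.1 and 54.1 on the first component of the leaf data (34.3% of the variance), and the other 6 at -29.6 to 12.

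**Figure D5:**
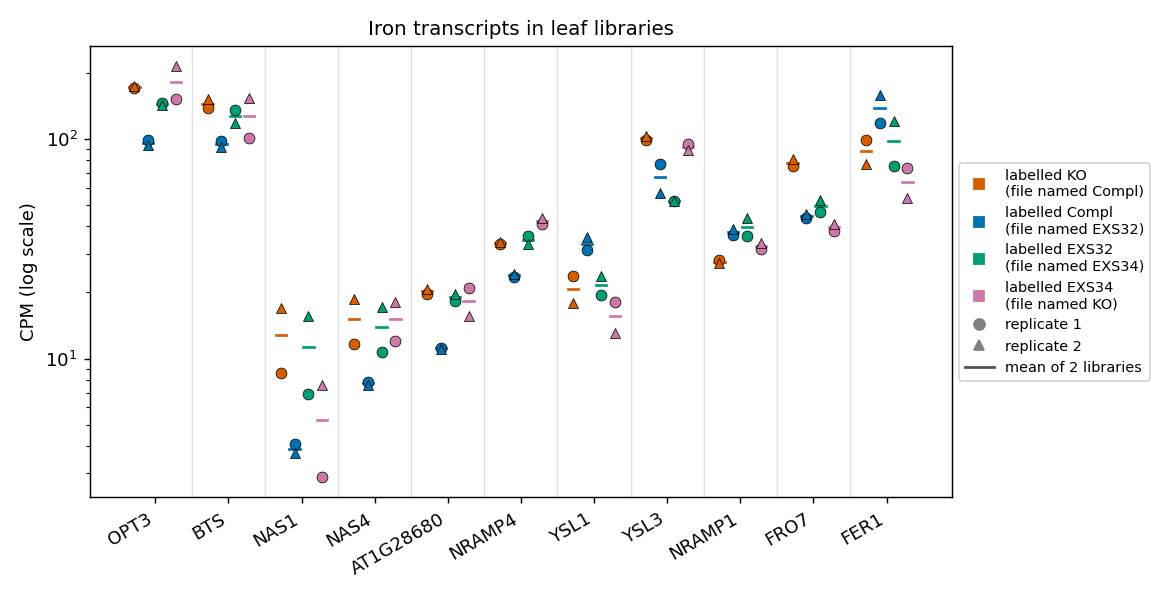
CPM (log scale) of 11 members in the 2 leaf libraries of each labelled group, with the genotype of the file name in the legend (circle, replicate 1; triangle, replicate 2; line, mean). The libraries labelled Compl are the lowest for OPT3 (98.9 and 93.3 CPM) and AT1G28680 (11.2 and 11.1 CPM), and those labelled KO the highest for FRO7 (75.1 and 80.8 CPM).

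FRO7 had the smallest adjusted p among members in the leaf 4-group test (0.000497). It stood at 75.1 and 80.8 CPM in the libraries labelled KO, 43.6 and 45.3 in those labelled Compl, 46.5 and 52.5 in those labelled EXS32 and 38.2 and 40.9 in those labelled EXS34. Both libraries labelled KO, named Compl by their files, lay above the other 6. As labelled, KO against Compl gave 0.80 ± 0.10, adjusted p = 0.000577 and EXS34 against KO -1.004 ± 0.10, adjusted p = 0.00123, both held in all 14 settings, and EXS32 against KO gave -0.65 ± 0.09, adjusted p = 0.00789, lost without either library labelled KO. The surface reductase FRO6 ran from 121 to 187 CPM with no call.

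The phloem loader OPT3 and the acyl-transferase gene AT1G28680 were lowest in the libraries labelled Compl. OPT3 stood at 169.7 and 174 CPM in the libraries labelled KO, 98.9 and 93.3 in those labelled Compl, 146 and 142 in those labelled EXS32 and 151 and 213 in those labelled EXS34. As labelled, KO against Compl gave 0.83 ± 0.14, adjusted p = 0.0035 and EXS34 against Compl 0.89 ± 0.14, adjusted p = 0.0035, both held in all 14 settings, and EXS32 against Compl gave 0.58 ± 0.14, adjusted p = 0.0242, held in 10. AT1G28680 stood at 19.6 and 20.8 CPM in the libraries labelled KO, 11.2 and 11.1 in those labelled Compl, 18.4 and 19.6 in those labelled EXS32 and 20.9 and 15.6 in those labelled EXS34. KO against Compl gave 0.85 ± 0.15, adjusted p = 0.00504 (all 14 settings), EXS32 against Compl 0.76 ± 0.16, adjusted p = 0.0122 and EXS34 against Compl 0.69 ± 0.16, adjusted p = 0.0175. Both of the latter were lost without either library labelled Compl, the first also without EXS32 replicate 2 and the other without EXS34 replicate 1 or with only these groups fitted (adjusted p up to 0.0872 and 0.103). The vacuolar exporter NRAMP4 followed, at 33.2 and 33.9 CPM in the libraries labelled KO, 23.6 and 24.3 in those labelled Compl, 36.0 and 33.4 in those labelled EXS32 and 40.8 and 43.6 in those labelled EXS34, with EXS34 against Compl at 0.79 ± 0.10, adjusted p = 0.0011 in all 14 settings. KO against Compl gave 0.48 ± 0.10, adjusted p = 0.00821 (lost without KO replicate 2 or either Compl library), and EXS32 against Compl gave 0.53 ± 0.10, adjusted p = 0.00751 (lost without Compl replicate 1).

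The YSL carriers differed from one another. YSL1 was highest in the libraries labelled Compl, at 23.6 and 17.9 CPM in the libraries labelled KO, 31.1 and 35.6 in those labelled Compl, 19.4 and 23.8 in those labelled EXS32 and 18.0 and 13.1 in those labelled EXS34, with EXS34 against Compl at -1.12 ± 0.20, adjusted p = 0.00633 (lost without Compl replicate 2, adjusted p = 0.0579). YSL1 was also lower in KO than in Compl (-0.69 ± 0.19, adjusted p = 0.0331), a call lost without KO replicate 2 or either Compl library. YSL3 was lowest in the libraries labelled EXS32, named EXS34 by their files, at 98.8 and 103 CPM in the libraries labelled KO, 76.5 and 56.9 in those labelled Compl, 52.0 and 52.1 in those labelled EXS32 and 95.1 and 89.4 in those labelled EXS34. EXS32 against KO gave -0.96 ± 0.13, adjusted p = 0.00611 and EXS34 against EXS32 0.80 ± 0.13, adjusted p = 0.0111, and KO against Compl gave 0.59 ± 0.12, adjusted p = 0.0105. Leaving out either KO library ended the first and the third of these calls, either EXS32 library the second, and Compl replicate 2 the third (adjusted p up to 0.0626, 0.0751 and 0.073). YSL3 was also higher in EXS34 than in Compl, a call held in 6 settings (0.43 ± 0.13, adjusted p = 0.0423). YSL2 ran from 2.85 to 6.55 CPM without a call.

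The remaining leaf calls were those of BTS, NRAMP1, AHA2 and ZIF1. BTS stood at 138 and 151 CPM in the libraries labelled KO, 97.9 and 91.6 in those labelled Compl, 136 and 118 in those labelled EXS32 and 101 and 153 in those labelled EXS34, with KO against Compl at 0.60 ± 0.18, adjusted p = 0.0455 (held in 8 settings). NRAMP1 stood at 27.9 and 27.3 CPM in the libraries labelled KO, 36.6 and 38.7 in those labelled Compl, 36.2 and 43.5 in those labelled EXS32 and 31.4 and 33.4 in those labelled EXS34, with KO against Compl at -0.45 ± 0.11, adjusted p = 0.0194 and EXS32 against KO at 0.53 ± 0.11, adjusted p = 0.028. AHA2 stood at 371 and 354 CPM in the libraries labelled KO, 433 and 415 in those labelled Compl, 361 and 469.6 in those labelled EXS32 and 302 and 324 in those labelled EXS34, with EXS34 against Compl at -0.47 ± 0.12, adjusted p = 0.0231. ZIF1 stood at 39.7 and 35.9 CPM in the libraries labelled KO, 31.6 and 29.9 in those labelled Compl, 47.6 and 33.4 in those labelled EXS32 and 43.4 and 60.4 in those labelled EXS34, with EXS34 against Compl at 0.72 ± 0.20, adjusted p = 0.0415 (held in 7 settings). Leaving out either library labelled Compl ended the calls of BTS and AHA2, and leaving out either library labelled KO ended those of NRAMP1 and BTS (adjusted p up to 0.215 for BTS, 0.119 for AHA2 and 0.191 for NRAMP1 in EXS32 against KO).

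The subgroup Ib genes were low in leaves and none was called. bHLH38 stood at 0.258 and 0.936 CPM in the libraries labelled KO, 0.261 and 0.423 in those labelled Compl, 0.580 and 1.07 in those labelled EXS32 and 0.161 and 1.31 in those labelled EXS34. bHLH39, below the filter, stood at 0.0644 and 0.360 CPM in the libraries labelled KO, 0.174 and 0.211 in those labelled Compl, 0.773 and 0.535 in those labelled EXS32 and 0.321 and 1.11 in those labelled EXS34. bHLH100 stood at 0.837 and 1.66 CPM in the libraries labelled KO, 0.261 and 0 in those labelled Compl, 1.16 and 0.713 in those labelled EXS32 and 0.482 and 1.72 in those labelled EXS34. For bHLH100 and bHLH101 the libraries labelled Compl lay below the other 6. bHLH101 stood at 1.22 and 1.44 CPM in the libraries labelled KO, 0.0869 and 0.317 in those labelled Compl, 0.677 and 1.52 in those labelled EXS32 and 0.482 and 1.92 in those labelled EXS34. In the libraries labelled Compl bHLH100 reached 0.261 CPM and bHLH101 0.317 CPM at most, and KO against Compl gave 3.02 ± 0.98, adjusted p = 0.0569 and 2.72 ± 0.87, adjusted p = 0.0532. In the libraries labelled EXS34, named pho1-4 by their files, replicate 2 was 8.17-fold higher than replicate 1 for bHLH38, 3.46-fold for bHLH39, 3.56-fold for bHLH100 and 3.98-fold for bHLH101. This was not particular to them. In the libraries labelled KO, replicate 2 was higher by 3.63-, 5.59-, 1.98- and 1.18-fold in the same order. Replicate 2 was higher for bHLH38 and bHLH101 in every leaf group. It was lower for bHLH100 in those labelled Compl, and for bHLH39 and bHLH100 in those labelled EXS32. The read counts of these genes are small, so counting error is part of this spread.

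FIT stood at 1.22 and 2.59 CPM in the libraries labelled KO, 2.87 and 1.90 in those labelled Compl, 1.74 and 1.61 in those labelled EXS32 and 4.09 and 2.52 in those labelled EXS34, and PYE at 6.89 and 7.05 CPM in the libraries labelled KO, 7.65 and 7.71 in those labelled Compl, 6.38 and 6.24 in those labelled EXS32 and 4.82 and 7.26 in those labelled EXS34. Neither was called in leaves, nor were ILR3, MYB10, F6'H1, ABCG37, BGLU42, NRAMP3, FRD3 or FRO3.

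Leaf nicotianamine synthases and ferritins were not called. NAS1 stood at 8.63 and 17.0 CPM in the libraries labelled KO, 4.09 and 3.70 in those labelled Compl, 6.86 and 15.6 in those labelled EXS32 and 2.89 and 7.57 in those labelled EXS34. NAS3 stood at 5.09 and 3.24 CPM in the libraries labelled KO, 6.09 and 4.23 in those labelled Compl, 3.19 and 4.37 in those labelled EXS32 and 15.02 and 6.05 in those labelled EXS34, with 1 library labelled EXS34 far above the other 7. NAS4 stood at 11.6 and 18.6 CPM in the libraries labelled KO, 7.83 and 7.61 in those labelled Compl, 10.7 and 17.2 in those labelled EXS32 and 12.0 and 18.1 in those labelled EXS34. The KO against Compl change of NAS4 was 0.95 ± 0.32, adjusted p = 0.0745, with the Compl libraries below all others. FER1 stood at 99.0 and 76.8 CPM in the libraries labelled KO, 118 and 159 in those labelled Compl, 74.8 and 121 in those labelled EXS32 and 73.5 and 53.7 in those labelled EXS34, with the highest mean in the libraries labelled Compl, and EXS34 against Compl gave -1.15 ± 0.31, adjusted p = 0.0539. FER3 stood at 94.1 and 95.8 CPM in the libraries labelled KO, 78.4 and 78.1 in those labelled Compl, 76.0 and 113 in those labelled EXS32 and 84.5 and 90.2 in those labelled EXS34 and FER4 at 44.3 and 44.8 CPM in the libraries labelled KO, 46.9 and 45.8 in those labelled Compl, 31.0 and 51.9 in those labelled EXS32 and 40.5 and 30.3 in those labelled EXS34. FER2 was below the filter, at 0.288 to 0.892 CPM.

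The genotype effect differed between roots and leaves for 7 of 41 tested members in the interaction test (17.1%, against 18.8% of all genes), with leaf groups as labelled. These were AT1G28680, OPT3, NAS1, YSL3, FRD3, YSL2 and AHA2 (adjusted p = 0.000411, 0.0012, 0.00936, 0.0198, 0.0258, 0.0461 and 0.0487). For OPT3, EXS32 against Compl was -1.65 ± 0.20 in roots and, as labelled, 0.58 ± 0.14 in leaves. This opposite direction depends on the labels. By file name, the leaf libraries of EXS32 are those labelled Compl and the leaf libraries of Compl those labelled KO. OPT3 stood at 98.9 and 93.3 CPM in the former and 169.7 and 174 in the latter, lower in EXS32 as in roots. With leaf groups named by their files the test called 2 members, NRAMP4 (adjusted p = 0.0316) and YSL3 (0.0335), and the others were not called, among them OPT3 (0.215), AT1G28680 (0.324) and NAS1 (0.191). So which genes depend on the organ cannot be told apart from the naming of the leaf libraries.

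A further 41 iron genes outside the 42, also chosen with earlier results of these data known, were read the same way. In EXS32 against Compl roots 9 of 40 tested were called, 3 higher and 6 lower. Of all genes 12.4% were called there, 5.10% higher and 7.27% lower. AT1G76800, related to vacuolar iron transporters, rose from 9.04 and 10.8 CPM in Compl to 30.6 and 25.4 in EXS32 (1.45 ± 0.15, adjusted p = 0.00388). It was also higher in KO at 24.1 and 25.4 CPM (1.25 ± 0.15, adjusted p = 0.0293 against Compl). Enzymes of the phenylpropanoid route that feeds coumarins and lignin were lower in EXS32 than in Compl. 4CL1 stood at 542 and 420.1 CPM in Compl and 175 and 173 in EXS32 (-1.52 ± 0.20), with 313 and 333 in KO and 234 and 336 in EXS34. 4CL2 gave a log2 fold change of -1.04 ± 0.15 and CCoAOMT1 -1.01 ± 0.14. For 4CL1 and CCoAOMT1, both Compl libraries lay above all other root libraries. Of 4 bHLH genes acting above the subgroup Ib genes, bHLH104 (0.53 ± 0.09) and bHLH121 (0.63 ± 0.16) were higher, and bHLH34 (-0.36 ± 0.20, adjusted p = 0.266) and bHLH115 (-0.11 ± 0.10, adjusted p = 0.526) were not called. The reductase genes FRO8 (-1.13 ± 0.22) and FRO5 (-1.69 ± 0.33) were lower, as was AT3G58060 (-2.76 ± 0.55). Of the 32 tested in leaves, 10 were called in KO against Compl as labelled (21.1% of all genes) and 7 in EXS34 against Compl (18.3%). In the latter AT2G30766, which has no name in the gene table, stood at 1.65 and 0.317 CPM in the libraries labelled Compl and 5.06 and 15.8 in those labelled EXS34 (3.27 ± 0.75, adjusted p = 0.0332). IREG1, an iron exporter, was lower there (-1.06 ± 0.25), as was FRO4, a reductase (-1.09 ± 0.29). The phenylpropanoid genes were higher there, 4CL2 by 1.09 ± 0.20, CCoAOMT1 by 0.56 ± 0.11 and 4CL1 by 0.37 ± 0.10.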

How the data were processed

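RNA of roots and leaves was made into TruSeq Stranded mRNA libraries, per the labels. What the authors deposited is 1 table of raw counts per library. The submitters' processing notes name the TAIR10 build, HTSeq 0.5.4p3, TopHat2 2.0.9, cutadapt 1.2.1, limma, edgeR and R 3.1.1. The role of each and the strand setting of the counting were not stated, so counts of overlapping and antisense genes, and of near-identical copies such as the NAS genes, are uncertain. Lines naming no gene, 5 per table, held 8.57 to 10.3% of the reads of root libraries and 7.26 to 7.77% in leaves, and were left out.

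Gene names, positions and promoters came from RefSeq TAIR10.1, where 42 of 42 members matched; 1 upstream sequence is not reported here. Per organ, the 8 libraries were fitted together with edgeR 4.0.16 in R 4.3.3 (filterByExpr with minimum count 10 and minimum total 15, TMM, robust quasi-likelihood test, Benjamini-Hochberg over all genes). Roots against leaves and the interaction were tested in 1 fit of 16 libraries. An SE is the log2 fold change over the square root of F. The procedure was tested on simulated data. Both libraries of every group differed beyond counting error (4.3 to 40.5 times by chi-square over its degrees of freedom), and each counted as 1 replicate, numbered as in the titles. Root libraries held 20139794 to 31405117 gene reads; leaf libraries held 9465995 to 15530134, which makes low transcripts less precise there. The alternatives were DESeq2 1.42.0 and its size factors, library size alone, no filter, a replicate block, only the groups compared and each library left out; leaf groups named by their files were tried for the interaction.

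The members and the list of other iron genes were chosen with earlier results of these data known. Values of each library are given for FIT, IRT1, IRT2, FRO2, AHA2, the subgroup Ib genes, PYE, BTS, the NAS and FER genes, and any member called in a pair of groups; for members over 4-fold apart between organs, ranges are given. Of the other iron genes, at most 6 called ones with the lowest adjusted p were to be named per comparison, to which bHLH34, bHLH115, bHLH121, FRO5 and AT3G58060 in roots were added after their values were seen. Figures were drawn with matplotlib 3.10.9.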

Additional observations from a re-analysis of the deposited data

Results flagged for a closer look

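For 7 members the genotype effect differed between roots and leaves in edgeR's quasi-likelihood interaction test with leaf groups as labelled. The adjusted p was 0.000411 for AT1G28680, 0.0012 for OPT3, 0.00936 for NAS1, 0.0198 for YSL3, 0.0258 for FRD3, 0.0461 for YSL2 and 0.0487 for AHA2. Naming the leaf groups by their files ended 6 of these 7 calls (adjusted p from 0.125 to 0.727), and YSL3 kept its call (0.0335). In EXS32 against Compl, AT1G28680 gave -1.08 in roots and 0.76 in leaves and OPT3 gave -1.65 and 0.58, all log2 fold changes with leaf groups as labelled. By file name, this leaf comparison sets the libraries labelled Compl against those labelled KO. Both genes were lower there, as in roots. Groups held 2 libraries each, too few to single out a library by its distance from the others.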

How the results depend on the processing

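Of 572 results for single members, 416 stayed on the same side of the threshold under every alternative. Among called results 1 reversed its sign: NRAMP4 between organs went from -0.40 to 0.16 with library size alone. Changes of sign among results not called, such as PYE between organs, were not counted. DESeq2 gave no adjusted p for 21 of the 572 results, and these have no DESeq2 value. The counts of called members moved as follows, and the cause was not tested. With DESeq2 the counts in roots were 17 for any difference (6 with edgeR), 3 for KO against Compl (1), 10 for EXS32 against KO (1), 2 for EXS34 against KO (0), 18 for EXS32 against Compl (11), 5 for EXS34 against Compl (0) and 6 for EXS34 against EXS32 (1). The calls over all genes rose there too. In the same order they were 3006 (820 with edgeR), 1234 (182), 537 (26), 100 (0), 3404 (2548), 642 (27) and 1085 (187). In leaves EXS34 against EXS32 gave 3 (1), and the interaction gave 13 (7), with 1077 (1056) and 5405 (4009) over all genes. With DESeq2 size factors, library size alone or only the groups compared, KO against Compl in roots gave 0. Over all genes it gave 151, 237 and 11 calls in these settings (182 as reported). Library size alone gave 2 for EXS32 against KO and 2 for EXS34 against EXS32 in roots. Without a filter these gave 2 and 3, and EXS34 against EXS32 in leaves gave 2. Over all genes the root counts were 30 and 184 with library size alone, and 54 and 252 without a filter. The leaf count without a filter was 1205. Fitting only the groups compared gave 5 for EXS32 against KO in roots, and in leaves 15 for KO against Compl (8) and 5 for EXS32 against Compl (3). Over all genes these were 517 (26), 5719 (3910) and 2556 (2754). The interaction gave 2 with leaf groups named by their files, and 1431 over all genes (4009).

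With the replicate number as a block, root counts were 0 for KO against Compl, 2 for EXS32 against KO and 0 for EXS34 against EXS32. Over all genes these were 104 (182 without a block), 63 (26) and 140 (187). Leaf counts were 14 for any difference (8), 15 for KO against Compl, 4 for EXS34 against KO (1), 8 for EXS32 against Compl and 5 for EXS34 against EXS32. Over all genes the leaf counts rose too, to 6491 (4981), 4742 (3910), 1949 (1189), 3494 (2754) and 1840 (1056). The numbers share no stated source: deviations of same-numbered libraries correlated at -0.251 to 0.219 in roots and 0.0357 to 0.335 in leaves, so the block was not used.

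Leaving out 1 library at a time, where the lone library is assumed to vary like the other groups, gave in roots 0 to 8 members for any difference, 0 to 3 for KO against Compl, 0 to 3 for EXS32 against KO, 1 to 14 for EXS32 against Compl, 0 to 4 for EXS34 against Compl and 0 to 3 for EXS34 against EXS32. In leaves it gave 3 to 10 for any difference, 3 to 10 for KO against Compl, 0 to 4 for EXS32 against KO, 1 to 3 for EXS34 against KO, 0 to 6 for EXS32 against Compl, 2 to 7 for EXS34 against Compl and 0 to 2 for EXS34 against EXS32, and 3 to 9 for the interaction. The count between organs ran from 37 to 39. Calls over all genes also changed in number when 1 library was left out, so these shifts are not particular to the members. The shallowest leaf library held 9465995 reads, which limits the precision of the subgroup Ib genes there.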
